A study of Mus musculus and Homo sapiens with 14 samples.

Results

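The B cell receptor and its surface partners were followed through 14 RNA sequencing libraries as 9 genes chosen by symbol, out of 26221 named genes in the mouse count table and 27945 in the human one. All 9 were found in both tables. They are Cd79a and Cd79b, which encode the signalling subunits of the receptor; Cr2, Cd22 and Cd72, its co-receptors; and Ms4a1, Fcer2a, Cd83 and Fcmr, which encode other surface proteins of B cells. In human cells FCER2 stands for Fcer2a. The series addressed the transcription factor IRF4 in plasma cells that already exist.

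Donor plasma cells were sorted from spleens of chimaeric mice that had received marrow of Irf4 flox/- or Irf4 flox/+ genotype mixed with uMT marrow, which cannot form mature B cells. The strain label is C57BL/6. Tamoxifen was given on days 1, 2, 7 and 8 and spleens were taken on day 14, with 2 libraries for flox/- and 2 for flox/+. Both genotypes thus carried a floxed allele and received tamoxifen, and differed in the other allele. The recombinase, the ages and any pooling of animals are not given in the sources used here. Cas9 with an Irf4 guide RNA or with an empty vector was expressed in the mouse plasmacytoma MPC-11 and in MM.1S, a human myeloma line. These cells received doxycycline and were sorted on day 3, with 2 libraries per condition, and the labels call the guide libraries Irf4 -/-. Wild-type bone marrow plasma cells (BMPC) and wild-type splenic follicular B cells (FoB) had 1 library each. Nothing in the labels says that libraries of a group came from separate animals or cultures, so p-values measure only the spread between these libraries.

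As background, a B cell senses antigen through membrane immunoglobulin, which has almost no cytoplasmic tail and signals through the Cd79a and Cd79b heterodimer. CD21, encoded by Cr2, lowers the threshold for activation when antigen carries complement, whereas CD22 and CD72 recruit the phosphatase SHP-1 (Ptpn6) and damp the signal. Plasma cells secrete immunoglobulin, and many of these surface genes are turned down as B cells become plasma cells.

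Libraries held 18738283 to 27003585 counts in mouse and 19317115 to 21572315 in human cells. Levels are given as CPM, counts scaled to library size with TMM factors over all libraries of the species. A sum of 10 plasma cell markers was 36700 and 34000 CPM in flox/- libraries, against 79600 and 99300 in flox/+ libraries. It was 53600 CPM in BMPC and 432 CPM in FoB. Jchain was the largest of these markers, and 0 of the 10 were higher in both flox/- libraries. Xbp1 had 1979 and 1760 CPM in flox/- libraries, against 4307 and 5932 in flox/+ libraries. Irf4 stood at 172 and 89.2 CPM in MPC-11 guide libraries, against 296 and 302 in empty vector libraries, and IRF4 at 141 and 190 CPM in MM.1S guide libraries, against 494 and 433. In spleen Irf4 was at 133 and 159 CPM in flox/- libraries, against 179 and 86.9 in flox/+ libraries, so its whole-gene count does not separate these genotypes. The 2 flox/+ count columns share a name and are called a and b.

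RefSeq promoters (GRCm38.p6, from 250 bases before to 50 bases after the start site) were held for 6 of the 9 genes, Cd22, Cd72, Cd79a, Cr2, Fcer2a and Fcmr, in 8 entries. Promoters of 3 genes that were higher in both flox/- libraries (Cd22, Cd72 and Fcmr) are shown beside that of a receptor subunit whose groups overlapped (Cd79a), 5′ to 3′ on the gene's strand. Capitals mark an EBF core in Cd22 and an ETS core, GAGGAA on the opposite strand, in the other 3.
Cd22, chr7:30878979-30879278, minus strand: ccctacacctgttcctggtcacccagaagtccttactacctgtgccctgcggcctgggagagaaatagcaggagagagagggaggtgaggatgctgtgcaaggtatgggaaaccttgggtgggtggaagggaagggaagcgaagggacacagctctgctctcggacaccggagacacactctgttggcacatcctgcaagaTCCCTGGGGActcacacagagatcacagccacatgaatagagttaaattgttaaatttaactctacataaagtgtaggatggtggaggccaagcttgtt
Cd72, chr4:43454577-43454876, minus strand: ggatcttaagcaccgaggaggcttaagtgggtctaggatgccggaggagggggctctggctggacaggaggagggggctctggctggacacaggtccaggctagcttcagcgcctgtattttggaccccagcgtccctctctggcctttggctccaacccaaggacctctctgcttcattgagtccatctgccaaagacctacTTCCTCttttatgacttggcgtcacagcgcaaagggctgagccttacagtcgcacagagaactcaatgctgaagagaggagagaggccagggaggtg
Fcmr, chr1:130865527-130865826, plus strand: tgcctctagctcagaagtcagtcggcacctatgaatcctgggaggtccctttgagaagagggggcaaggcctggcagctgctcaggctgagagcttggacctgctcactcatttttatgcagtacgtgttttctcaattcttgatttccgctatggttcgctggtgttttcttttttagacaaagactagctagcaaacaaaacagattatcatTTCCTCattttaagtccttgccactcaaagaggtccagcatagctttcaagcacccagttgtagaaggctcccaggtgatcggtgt
Cd79a, chr7:24897247-24897546, plus strand: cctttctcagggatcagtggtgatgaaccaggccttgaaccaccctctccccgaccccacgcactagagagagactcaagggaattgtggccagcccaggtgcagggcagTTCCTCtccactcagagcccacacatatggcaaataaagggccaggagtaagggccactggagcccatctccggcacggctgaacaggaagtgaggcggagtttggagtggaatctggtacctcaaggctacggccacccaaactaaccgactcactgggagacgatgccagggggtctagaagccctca
Both strands were searched. The EBF core (TCCC and GGGA with any 2 bases between them) reads the same on either strand. It was in 1 of the 8 entries, at position -49 of the Cd22 promoter, and in 0.904% of all 32851 promoter entries. The ETS core was in 3 of the 8 and 28.3% of all. Every promoter shown thus held a match. Fcer2a and Cr2 had entries without a match and are not shown, although Fcer2a was also higher in both flox/- libraries. An ETS-IRF composite (GGAA and GAAA with 2 bases between them) was in 0 of the 8 entries and 2.72% of all, and a tandem IRF motif (2 copies of GAAA with 2 bases between, so sharing its last part with the composite) in 0 of the 8 and 3.44% of all. These matches describe letters in a short window only.

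All 9 genes were highest in follicular B cells, and marrow plasma cells retained the receptor subunits far more than the co-receptors. Cd79a had 767 CPM in BMPC (exact 95% interval 751 to 784), against 2414 in FoB, or 31.8% of the FoB level. Cd79b had 741 CPM in BMPC, against 2247 in FoB, or 33%. Both subunits were thus lower by about the same factor, and their counts stood at 104 Cd79a per 100 Cd79b in BMPC and 107 in FoB.

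Fcmr, which encodes the receptor for the Fc part of IgM, kept 12.6% of its FoB level (148 CPM in BMPC, against 1173 in FoB). Ms4a1, which encodes CD20, the target of rituximab, kept 8.07% (67.7 CPM in BMPC, against 840 in FoB). Cd83, an activation marker of B cells and dendritic cells, kept 8.004% (43.03 CPM in BMPC, against 538 in FoB). These 3 genes sat below the subunits and above the co-receptors.

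Cd22 kept 1.199% of its FoB level (12.4 CPM in BMPC, against 1038 in FoB). Cd72 kept 0.382% (1.17 CPM in BMPC, against 307 in FoB) and Cr2 0.317% (1.53 CPM in BMPC, against 483 in FoB). Fcer2a, which encodes CD23, the low-affinity IgE receptor, kept 0.0554%, with 5 counts in BMPC, against 31992 in FoB. All 9 were thus past a 2-fold lower level in BMPC, as were 25.7% of the 12584 genes compared, while 25.4% were past 2-fold higher. These percents rest on scaling by trimmed means, and with libraries scaled to their totals alone they were 8.76 for Cd79a, 9.099 for Cd79b, 3.48 for Fcmr, 2.22 for Ms4a1, 2.21 for Cd83, 0.331 for Cd22, 0.105 for Cd72, 0.0875 for Cr2 and 0.0153 for Fcer2a. All 9 stayed past 2-fold lower under that scaling and in the deposited log2 FPKM, where Cd79a kept 26.4% and Fcer2a 0.0377%. With 1 library per type there is no test, and intervals cover counting error only. In these bulk libraries fewer cells of a type and less RNA per cell cannot be told apart.

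Per kilobase of exon (GENCODE M21), levels in FoB ran from Cd79a at 1657 and Cd79b at 1570 through Fcmr at 676, Fcer2a at 263, Cd83 at 209, Cd22 at 206 and Ms4a1 at 136 to Cd72 at 89.8 and Cr2 at 59.6 CPM per kb. In BMPC Cd79a (527) and Cd79b (518) again led on that scale, followed by Fcmr (85.3), Cd83 (16.7), Ms4a1 (10.9) and Cd22 (2.47), with the other three below 1. On this scale Fcer2a ranked 4 in FoB and 9 in BMPC. Its place in BMPC rests on 5 counts, beside 17 for Cr2 (0.146 and 0.189 CPM per kb), so the order of these lowest genes is uncertain. The deposited log2 FPKM gave another order. There Ms4a1 (9.61) stood above Fcer2a (9.36) in FoB, and above Cd83 in BMPC (5.99 and 5.28). Cd79b stood above Cd79a in FoB (11.67 and 11.60) and in BMPC (9.80 and 9.68).

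**Figure D1:**
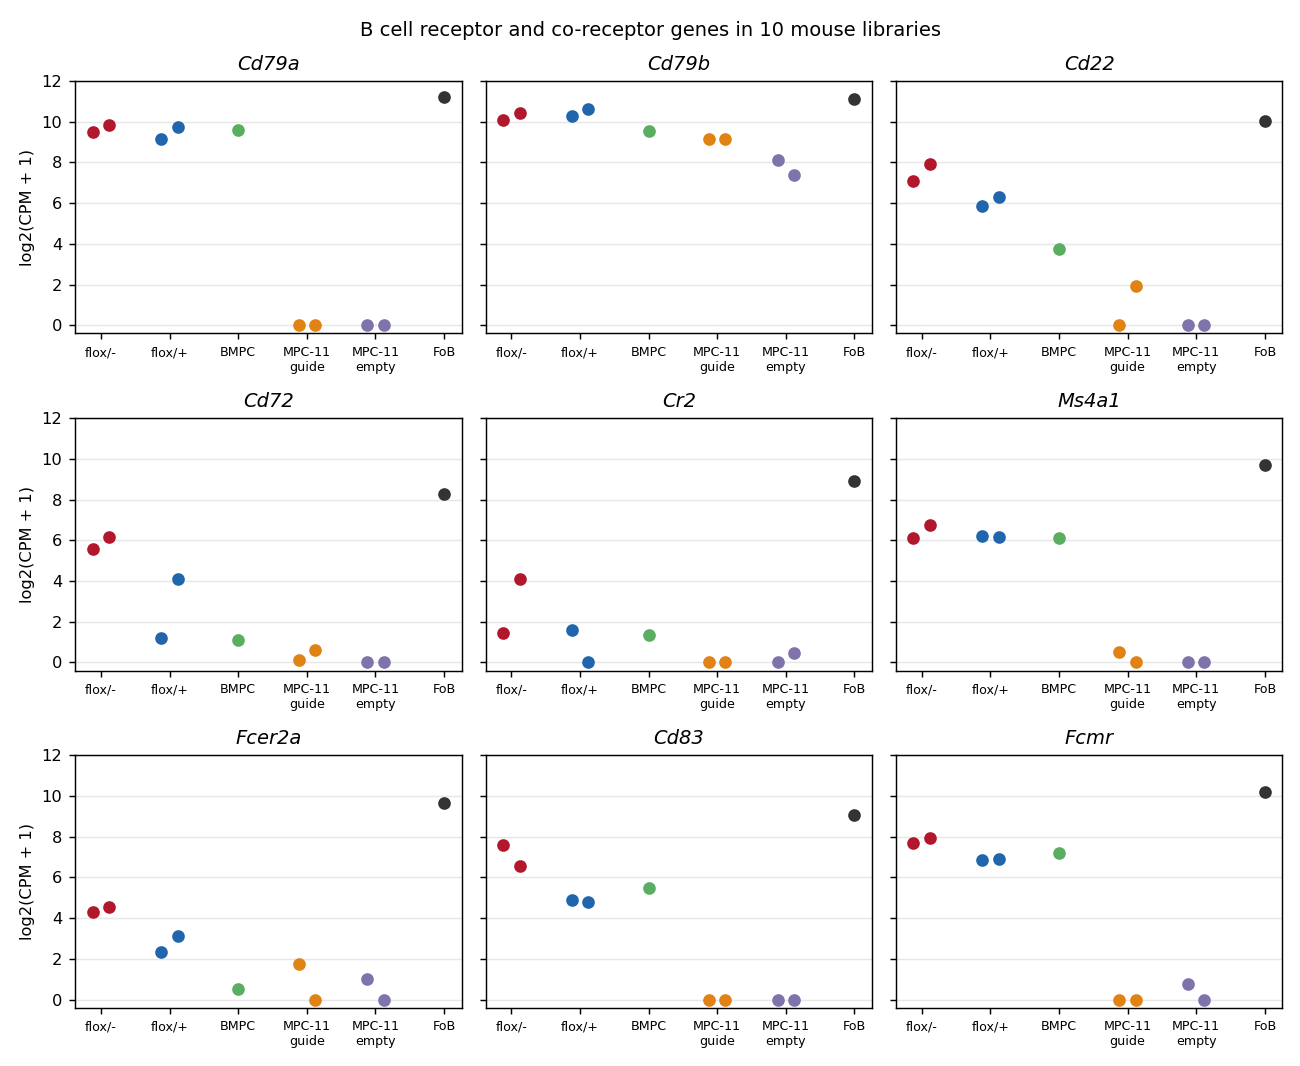
Level of each gene as log2(CPM + 1) in the 10 mouse libraries, 1 point per library, by group (splenic plasma cells flox/- and flox/+, BMPC, MPC-11 with guide and with empty vector, FoB). FoB is the highest group for all 9 genes, and in MPC-11 Cd79b alone lies far above 0.

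In splenic plasma cells Cd22, Cd72, Fcer2a, Cd83 and Fcmr were higher in both flox/- libraries than in either flox/+ library, while Cd79a, Cd79b, Ms4a1 and Cr2 overlapped between the groups. None of the 9 passed edgeR's adjusted p of 0.05, and edgeR called 0% of the 11887 genes tested. Of the 9 genes, 8 had a log2 ratio of flox/- over flox/+ above 0 (54.3% of all genes), with a median of 1.47 for the 9 and 0.085 for all genes. The 5 genes without overlap stand beside 26.2% of all genes higher in this way and 17.9% lower. At an unadjusted p under 0.05, 5 were higher and 0 lower (8.63% and 3.85% of all genes). DESeq2 called 2 of the 9, Cd83 and Cd22, both higher, beside 3.71% of its genes higher and 1.73% lower.

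Of the subunits, Cd79a (mm10 chromosome 7, 24897381 to 24902197) had 733 and 903 CPM in flox/- libraries, against 573 and 865 in flox/+ libraries. Its log2 ratio was 0.18 with SE 0.35 and n = 2 per group (adjusted p 0.918 by edgeR), and it turned to -0.068 without flox/+ library a. Cd79b (chromosome 11, 106311341 to 106314762) had 1101 and 1385 CPM in flox/- libraries, against 1259 and 1560 in flox/+ libraries. For Cd79b the log2 ratio was -0.19 with SE 0.33 (adjusted p 0.9102 by edgeR), and 0.73 with libraries scaled to their total alone. The flox/- libraries held 66.6 and 65.2 Cd79a counts per 100 Cd79b, against 45.5 and 55.5 in flox/+ libraries. This ratio needs no scaling, and it was not tested.

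The inhibitory co-receptor gene Cd22 (chromosome 7, 30865402 to 30880342) had 136 and 240 CPM in flox/- libraries, against 57.8 and 78.3 in flox/+ libraries. Its log2 ratio was 1.47 with SE 0.40 (adjusted p 0.283 by edgeR and 0.0326 by DESeq2). Cd22 shares 479 exonic bases with the antisense gene Gm29439, and the use of strand in counting is not stated. Cd72 (chromosome 4, 43446462 to 43454628), which like CD22 recruits SHP-1, had 45.9 and 70.05 CPM in flox/- libraries, against 1.28 and 16.1 in flox/+ libraries, so the flox/+ libraries themselves differed widely. The log2 ratio of Cd72 was 2.75 with SE 1.08 (adjusted p 0.389 by edgeR and 0.0946 by DESeq2), 1.86 without flox/+ library a and 5.46 without flox/+ library b. Cd72 shares 1423 exonic bases with Tesk1 on the opposite strand. Tesk1 had 29.3 and 29.01 CPM in flox/- libraries, against 28.1 and 39.04, and in MPC-11 it had 15.9 to 33.7 CPM beside at most 0.551 CPM of Cd72.

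The complement receptor gene Cr2 (chromosome 1, 195136811 to 195176716), which in mice encodes both CD21 and CD35, had 1.74 and 16.3 CPM in flox/- libraries, against 2.02 and 0 in flox/+ libraries. Only flox/- library 2 was high. The log2 ratio of Cr2 was 3.13 with SE 1.95 (adjusted p 0.647 by edgeR), and 0.75 without that library. Follicular dendritic cells also use Cr2. The summed markers of follicular dendritic and stromal cells were 52.9 and 38.2 CPM, against 35.7 and 60, with 2 of 7 markers higher in both flox/- libraries, and their part in Cr2 was not tested.

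Cd83 (chromosome 13, 43784775 to 43803132) had 193 and 94.8 CPM in flox/- libraries, against 28.4 and 27.2 in flox/+ libraries. Cd83 thus had a log2 ratio of 2.36 with SE 0.44 (adjusted p 0.275 by edgeR and 2.04e-04 by DESeq2), and 1.77 without flox/- library 1, the higher of the pair. Cd86, a costimulatory gene whose protein CD83 is known to keep at the cell surface, had 104 and 40.2 CPM in flox/- libraries. It had 26.4 and 10.8 CPM in flox/+ libraries and 30.1 in FoB. The same flox/- library 1 was the higher for Cd86, and its summed macrophage and monocyte markers were 7640 CPM, against 1110 in flox/- library 2. The part of such cells in Cd83 and Cd86 was not tested. Fcmr (chromosome 1, 130865669 to 130880791) had 209 and 244 CPM in flox/- libraries, against 113 and 117 in flox/+ libraries, for a log2 ratio of 0.97 with SE 0.29 (adjusted p 0.288 by edgeR and 0.0556 by DESeq2). Both flox/+ values lay close together and both flox/- values above them.

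Fcer2a (chromosome 8, 3681737 to 3694175) had 18.6 and 22.1 CPM in flox/- libraries, against 4.04 and 7.602 in flox/+ libraries, for a log2 ratio of 1.80 with SE 0.57 (adjusted p 0.299 by edgeR and 0.0983 by DESeq2). Ms4a1 (chromosome 19, 11249675 to 11266241) had 68.01 and 107 CPM in flox/- libraries, against 73.8 and 71.8 in flox/+ libraries. Its log2 ratio was 0.26 with SE 0.35 (adjusted p 0.864 by edgeR), and it turned to -0.12 without flox/- library 2.

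**Figure D2:**
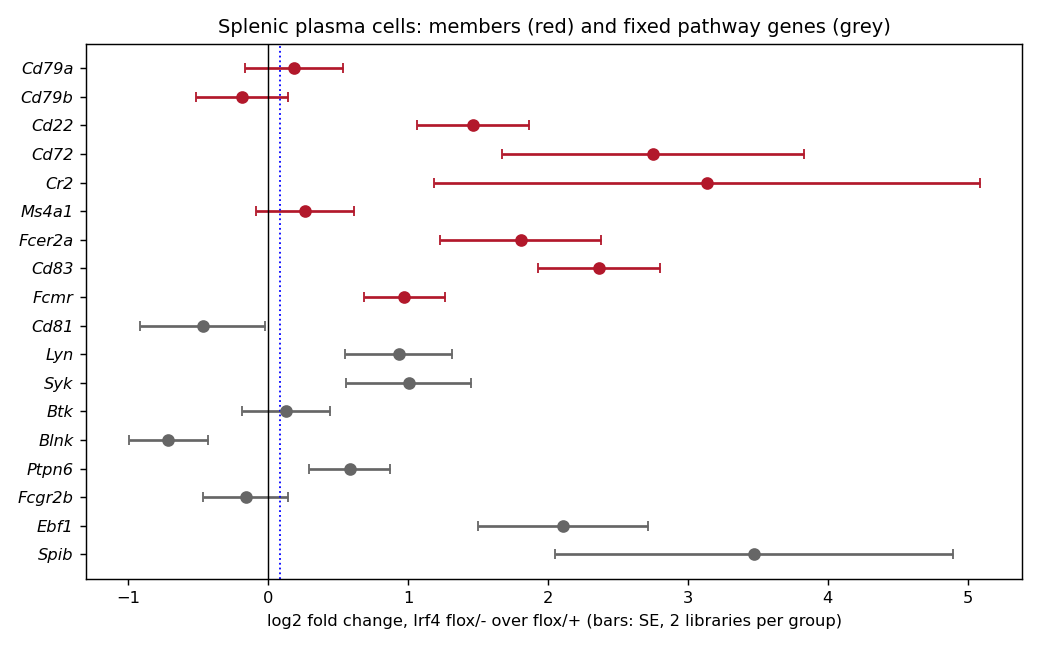
Log2 ratio of flox/- over flox/+ splenic plasma cells for the 9 genes and, in grey, 9 pathway genes, with SE bars from 2 libraries per group; the dotted line is the median of all genes tested. Cd79a, Cd79b and Ms4a1 lie near 0, and Cd22, Cd72, Fcer2a, Cd83 and Fcmr lie above 0.

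Other quantities moved with the genotype, among them the plasma cell marker sum given above, which was lower in both flox/- libraries. Most of that sum was Jchain (31868 and 29086 CPM in flox/- libraries, against 69765 and 87916 in flox/+ libraries). Prdm1 (80.6 and 133 CPM, against 88.6 and 94.6) and Irf4 overlapped between the groups. Each of the other plasma cell markers was lower in both flox/- libraries. Immunoglobulin heavy and light chain genes took 56.3 and 52.7% of counts in flox/- libraries, against 72.1 and 73.4% in flox/+ libraries. With libraries scaled to their total alone the median log2 ratio of all genes went to 0.98, so each change here is relative to the other genes. A sum of 12 follicular B cell markers outside the 9 genes was 733 and 1090 CPM, against 277 and 387, with 6940 in FoB, and 10 of the 12 were higher in both flox/- libraries. Of these markers Bank1, Blk, Fcrl1 and Pax5, among others, also stand in the pathway lists described further on. Pax5, a defining gene of B cells, was near the floor, at 1.14 and 0.899 CPM, against 0.826 and 0.

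Markers of other cells were read in the same way. T cell markers summed to 202 and 361 CPM, against 34.5 and 70.6, with 8 of 10 higher in both flox/- libraries. Most of the flox/+ T cell sums came from Cd2, which had 74.7 and 81.5 CPM, against 24.4 and 43.7, and 188 in FoB. NK cell markers summed to 47.6 and 131 CPM, against 13.6 and 21.9, with 3 of 8 higher. For macrophages and monocytes the sum was 7640 and 1110 CPM, against 1910 and 1100, with 7 of 10 higher. Most of the flox/+ sums came from Ly6c2, which had 475 and 503 CPM, against 1420 and 914, and 1127 in BMPC. Csf1r, among the 7, had 924 and 155 CPM, against 106 and 12. Dendritic cell markers summed to 262 and 119 CPM, against 168 and 162, with 5 of 9 higher. Bst2 made up most of these sums, at 221 and 102 CPM, against 159 and 157, and had 119 CPM in BMPC. Erythroid markers summed to 534 and 31.6 CPM, against 28.9 and 3.5. Neutrophil markers summed to 0.0496 and 0.649 CPM, against 0.55 and 0, and to 470 in BMPC. The part of these cell types in the values of the 9 genes was not tested.

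The gap between flox/- and flox/+ was also set beside the level in the single FoB library, and these values were not tested. Expressed as a percent of the FoB level, flox/- minus flox/+ was 21.6 for Cd83, 16.1 for Cd72, 11.6 for Cd22 and 9.5 for Fcmr. It was 4.11 for Cd79a, 1.78 for Ms4a1, 1.78 for Fcer2a, 1.65 for Cr2 and -7.39 for Cd79b. Ighd and Bank1, B cell genes outside the list, gave 4.3 and 5.84. Cd22 thus stood at 18.1% of its FoB level in flox/- libraries, 6.56% in flox/+ libraries and 1.199% in BMPC, whereas Ms4a1 stood at 10.4%, 8.67% and 8.07%. With libraries scaled to their totals alone, flox/- minus flox/+ was 10.6 for Cd83, 10.1 for Cd79b, 8.36 for Cd79a, 8.13 for Cd72, 6.89 for Cd22, 6.47 for Fcmr and 2.72 for Ms4a1, so the subunits' place in this order, and the sign for Cd79b, depended on the scaling.

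**Figure D3:**
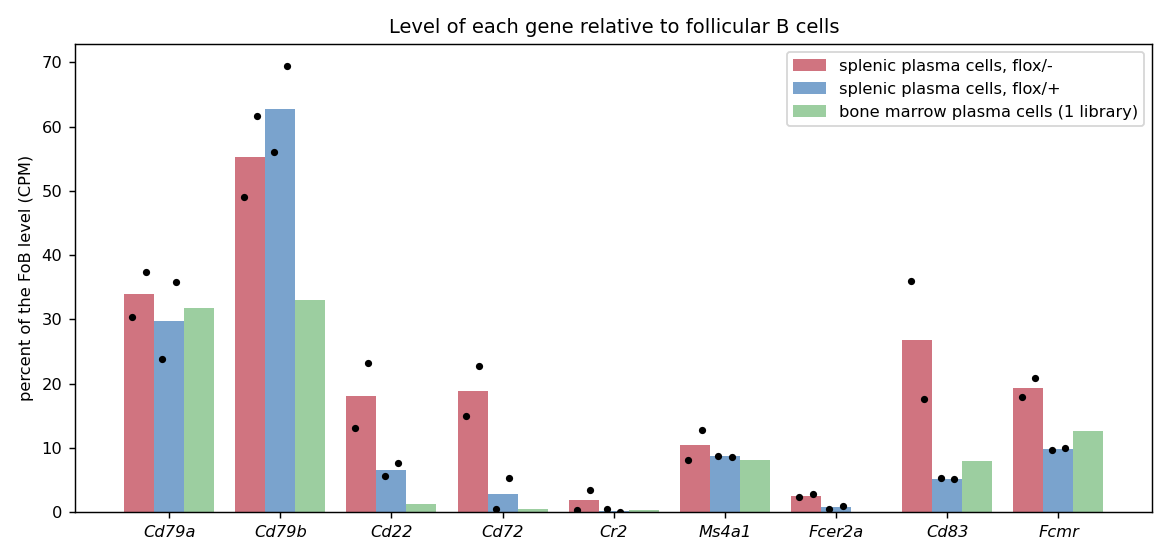
Level of each gene as a percent of its level in the FoB library; bars are means for flox/- and flox/+ splenic plasma cells (points, 2 libraries each) and the single BMPC library. Cd83, Cd72 and Cd22 show the widest gaps with flox/- above flox/+.

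Genes that work with the receptor were read from 4 lists, and none of their members passed edgeR in spleen. Of 25 proximal signalling genes, 20 were higher (median log2 ratio 0.64), 4 higher and 1 lower at an unadjusted p under 0.05, and DESeq2 called 1, Prkcb. Prkcb, the kinase C that links the receptor to NF-kB, had 122 and 79.2 CPM in flox/- libraries, against 30.2 and 12.98 in flox/+ libraries (DESeq2 adjusted p 0.00554), and Bank1 and Pik3ap1 followed by p. The kinase gene Syk had 235 and 311 CPM, against 181 and 89.1, and Lyn 152 and 88.2 CPM, against 69.6 and 55.5. Btk had 49.5 and 46.9 CPM, against 45.5 and 42.3, with groups almost level. The adaptor gene Blnk was lower, at 134 and 135 CPM, against 204 and 234 (log2 ratio -0.71, SE 0.28, adjusted p 0.394 by edgeR), but its log2 ratio was 0.18 with libraries scaled to their total alone.

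Of 14 activating co-receptor genes, 8 were higher (median 0.86), and DESeq2 called 2 higher, Ltb and Ly86. The tetraspanin gene Cd81 had 1031 and 593 CPM, against 809 and 1433. Ltb, lymphotoxin beta, had 903 and 1167 CPM, against 239 and 307. Of 18 inhibitory receptors and phosphatases, 13 were higher (median 0.70). DESeq2 called 5 higher, Cd5, Ptprc, Lilrb4a, Pirb and Lair1, beside 3.71% of its genes. Pirb had 102 and 12 CPM, against 4.22 and 8.88, and Lair1 92.1 and 8.89 CPM, against 5.6 and 1.96, so flox/- library 1 was far the higher for both. Ptpn6 had 482 and 527 CPM, against 320 and 351, and the inhibitory Fc receptor gene Fcgr2b 69.6 and 85.1 CPM, against 79.2 and 93.1. The smallest p-values in this list belonged to Cd5, which T cells also use (5.16 and 17.1 CPM, against 0 and 0), Ptprc (307 and 367 CPM, against 172 and 124) and Lilrb4a, which myeloid cells also use (39.3 and 3.64 CPM, against 1.74 and 1.11).

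All 15 transcription factors of B cell surface genes had a log2 ratio above 0 (median 1.27), and DESeq2 called 2, Irf8 and Id3. Irf8 had 286 and 250 CPM, against 95.1 and 112, and Id3, an inhibitor of E proteins, 19.6 and 48.9 CPM, against 1.01 and 0. Ebf1 had 14.2 and 23.3 CPM, against 3.39 and 5.296 (log2 ratio 2.11, SE 0.61, adjusted p 0.285 by edgeR), and Spib 18.4 and 29.1 CPM, against 4.13 and 0.0854. Ets1 followed Irf8 and Id3 by p among the further genes.

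In MPC-11 the receptor subunits were split, with Cd79b alone detected. Cd79b had 570 and 568 CPM in guide libraries, against 278 and 167 in empty vector libraries, while Cd79a had no count in any of the 4 libraries, where 3 counts would be at most 0.108 CPM. The Cd79b groups did not overlap. Its log2 ratio was 1.37 with SE 0.33 and n = 2 per group (adjusted p 0.498 by edgeR and 0.00476 by DESeq2), and it lay between 1.09 and 1.75 over the alternatives. Only Cd79b and Fcer2a had enough counts to test, and neither passed edgeR (0.0187% of 10670 genes did). Both had a log2 ratio above 0 (48.5% of all genes). Cd79b alone had an unadjusted p under 0.05 (3.49% of all genes higher, 2.56% lower) and a DESeq2 call (1.03% higher, 0.459% lower), and 16.9% of all genes were higher and 16.5% lower without overlap.

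The other genes were at or near 0 in MPC-11, and most of their counts came from single libraries. Fcer2a had 84 and 0 counts in guide libraries, against 28 and 0 in empty vector libraries, and Cd22 had 0 and 80, against 0 and 0. Cd72 had 3 and 16 counts, against 0 and 0, and Ms4a1 15 and 0, against 0 and 0. Cr2 had 0 and 0 counts, against 0 and 14, and Fcmr 0 and 0, against 19 and 0. Cd83 had no count. Apart from Cd72, counted in both guide libraries, none was counted in both libraries of a condition, and no fold is given. Pax5 and Ebf1 also had no count in any MPC-11 library.

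Genes beneath the receptor were measured in this line, and none passed edgeR. Of 23 proximal signalling genes tested, 15 were higher with the guide (median log2 ratio 0.36), and DESeq2 called 2 higher, including Fyn. The Src family kinase gene Fyn had 174 and 169 CPM, against 54.3 and 86.9, and Malt1, which encodes a protease of the NF-kB pathway, 29.4 and 28.7 CPM, against 5.09 and 11.6. Lyn (45.1 and 52.7 CPM, against 41.5 and 30.7), Btk (94.4 and 39.1 CPM, against 57.3 and 70.4), Blnk (182 and 225 CPM, against 244 and 425) and Syk (5.84 and 8.92 CPM, against 0 and 2.21) passed neither test.

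Of 9 co-receptor genes tested, 7 were higher with the guide (median 0.97). DESeq2 called Ltb (150 and 207 CPM, against 80.7 and 44.2) and the tetraspanin gene Cd82 (9.15 and 18.9 CPM, against 1.08 and 0) higher, and Ly86 (0 and 0.138 CPM, against 7.79 and 3.497) lower. Cd81 had 294 and 256 CPM, against 293 and 219. Of 10 inhibitory genes, 8 were higher (median 0.33), with the smallest p for Dok3 (85.5 and 75.3 CPM, against 42.1 and 30.4), Ptpn22 and Inpp5d; 3 had an unadjusted p under 0.05 and DESeq2 called 0. Ptpn6 had 263 and 213 CPM, against 228 and 136, and Fcgr2b 3.36 and 5.07 CPM, against 5.73 and 2.29. Of 10 transcription factors, 8 were higher (median 0.42), and DESeq2 called 1, Id3 (5.84 and 9.17 CPM, against 0.866 and 0.762). Spib had 5.38 and 5.58 CPM, against 1.37 and 2.68, and Pou2af1 and Ets1 followed Id3 by p.

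Cd79b was the only one of the 9 with counts in all 8 libraries of spleen and MPC-11, so the difference of effect was read for it alone. It was -1.54 on the log2 scale with SE 0.50, spleen minus MPC-11 (edgeR unadjusted p 0.0149, adjusted p 0.633; DESeq2 adjusted p 0.0501). Over all 12993 genes edgeR called 0%, with 6.21% at an unadjusted p under 0.05. The effect on Cd79b in spleen thus did not pass the test of a difference from that in MPC-11, and the difference went to -0.52 with libraries scaled to their total alone.

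In MM.1S, FCMR had the smallest p-value of the receptor genes tested, and it, CD79B, CR2 and CD83 were higher in both guide libraries than in either empty vector library. FCMR had 675 and 648 CPM in guide libraries, against 241 and 223 in empty vector libraries. Its log2 ratio was 1.52 with SE 0.17 and n = 2 per group (unadjusted p 7.44e-05 and adjusted p 0.0996 by edgeR, adjusted p 3.58e-15 by DESeq2). By edgeR's p-value FCMR ranked 9 among 12696 genes. Over the alternatives the log2 ratio lay between 1.46 and 1.57. Its adjusted p by edgeR was 0.00275 and 0.0114 without empty vector library 1 and 2, and 0.431 and 0.907 without guide library 1 and 2. With a replicate block it was 0.00167.

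CD79B had 75.6 and 61.5 CPM in guide libraries, against 36.3 and 41.1 in empty vector libraries, for a log2 ratio of 0.84 with SE 0.24 (adjusted p 0.338 by edgeR and 0.0847 by DESeq2). CR2 had 58.5 and 56.2 CPM in guide libraries, against 33.9 and 48.2 in empty vector libraries, for a log2 ratio of 0.49 with SE 0.27 (adjusted p 0.645 by edgeR). CD79A stayed low, at 4.59 and 1.98 CPM, against 4.25 and 1.03, which is 6.08 and 3.21 counts per 100 CD79B in guide libraries, against 11.7 and 2.52 in empty vector libraries. CD83 had 25 and 20 counts in guide libraries, against 16 and 0 in empty vector libraries, for a log2 ratio of 1.55 with SE 1.77 (adjusted p 0.8702 by edgeR), a size like that of FCMR at a far lower level. MS4A1, CD22 and FCER2 had no count in any library, and CD72 had 0 and 9 counts, against 0 and 0.

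Of the 9 genes, 5 were tested in MM.1S and 0 passed edgeR, which called 0.00788% of genes. All 5 had a log2 ratio above 0 (50.7% of all genes), with a median of 0.84, beside 0.0075 for all genes. FCMR and CD79B were higher at an unadjusted p under 0.05 (5.42% of all genes higher, 4.58% lower). DESeq2 called FCMR alone (1.6% higher, 1.47% lower), and 4 of the 5 were higher without overlap (21.7% of all genes higher, 19.7% lower).

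On the deposited log2 FPKM scale, which accounts for gene length, FCMR was the highest of the 9 in MM.1S, at 7.77 and 7.71 in guide libraries, against 6.296 and 6.14 in empty vector libraries. CD79B followed at 5.91 and 5.58, against 4.82 and 5.03, then CR2 at 3.804 and 3.71, against 2.99 and 3.52. MM.1S and MPC-11 each held the CD79B transcript with little or no CD79A, but FCMR and CR2 were measured in MM.1S and were at or near 0 in MPC-11.

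**Figure D4:**
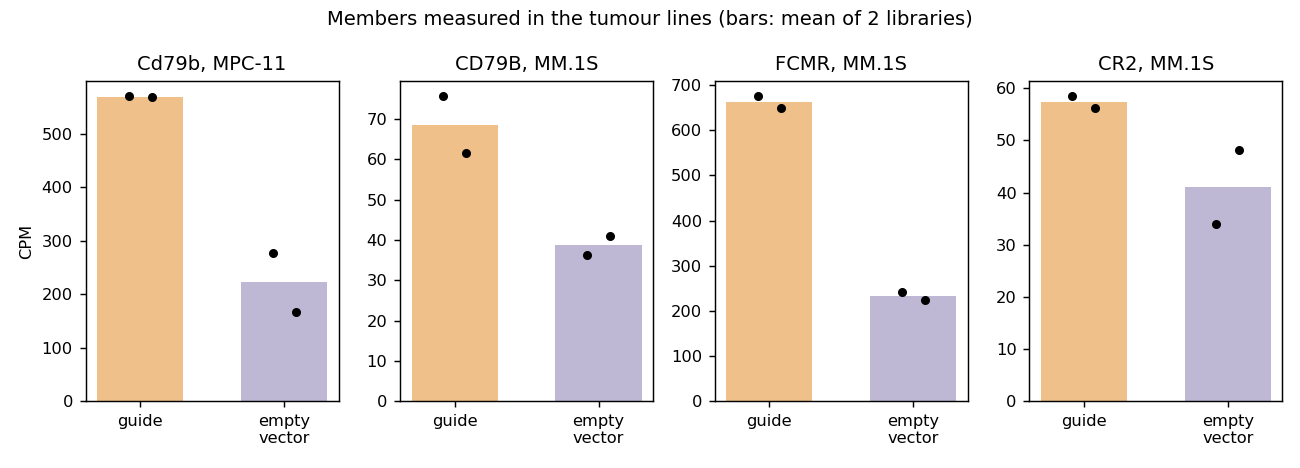
CPM of Cd79b in MPC-11 and of CD79B, FCMR and CR2 in MM.1S, with the guide (left) and the empty vector (right), as bars (means of 2 libraries) with a point for each library. In each panel both guide libraries lie above both empty vector libraries.

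Signalling genes in MM.1S did not share a direction, and none passed edgeR. Of 24 proximal signalling genes, 11 were higher with the guide and 13 lower (median -0.074, a sign that changed under 4 alternatives). DESeq2 called PLCG2 higher and PRKCB lower. PRKCB had 14.1 and 13.9 CPM in guide libraries, against 36.1 and 40.2 in empty vector libraries (log2 ratio -1.44, SE 0.27, adjusted p 0.2204 by edgeR and 0.00179 by DESeq2). PLCG2, the phospholipase beneath the receptor, had 79.6 and 93.6 CPM, against 42.2 and 20, and NFATC1, a transcription factor activated by calcium, 41.2 and 54.8 CPM, against 27.7 and 17.2. SYK had 57.8 and 66.5 CPM, against 93.96 and 99.3, LYN 34.7 and 35.6 CPM, against 49.5 and 42.5, BTK 18.3 and 19.2 CPM, against 13.9 and 15.3 and BLNK 39.7 and 41.7 CPM, against 43.9 and 53.1.

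All 7 tested activating co-receptor genes were higher with the guide (median 0.98), although CD81 had at most 0.991 CPM. DESeq2 called CD82 (627 and 583 CPM, against 305 and 315) and CD86 (79.1 and 66.9 CPM, against 31.8 and 30.5), and LY86 came next by p. Of 12 inhibitory genes, 7 were higher (median 0.28), and DESeq2 called INPP5D and DOK3. INPP5D, which encodes the lipid phosphatase SHIP1, had 199 and 223 CPM, against 103 and 82.7 (adjusted p 0.2204 by edgeR and 3.63e-05 by DESeq2), and the adaptor gene DOK3 61.8 and 51.2 CPM, against 17.6 and 6.67, with FCRL5 next by p. PTPN6 had 696 and 791 CPM, against 728 and 545, and FCGR2B at most 0.802 CPM. Of 14 transcription factors, 11 were higher (median 0.44), DESeq2 called IKZF3 (74.97 and 90.7 CPM, against 49.6 and 36.9), and SPI1 and ID3 followed by p. PAX5 had no count, EBF1 had 1.86 and 1.84 CPM, against 0.755 and 0 and SPIB 3.41 and 3.999 CPM, against 1.75 and 3.67.

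Over the 10 mouse libraries the genes most like the 9 in pattern, by Pearson correlation of log2(CPM + 1) with their mean standardised level, were Klf2 (r = 0.991), Stap1 (0.989), Siglecg (0.989), Gm11346 (0.988) and Rcsd1 (0.987), among 11541 genes. Each had no count in MPC-11 and its highest level in FoB. The 10 libraries include replicates of the same groups and differ in their share of immunoglobulin counts (3.24 to 73.4%), so these values only describe a common order of libraries. Without FoB the 5 correlations were 0.977 to 0.994.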

How the data were processed

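RNA from 14 libraries was prepared with a column kit and a transposase-based library kit, per the labels' protocols. Tools listed in the submitters' processing notes are featureCounts, Subread 1.6.0 and limma, and builds are mm10 and hg38; use of strand is not given in the sources used here. The authors deposited counts per gene (27179 mouse and 28395 human entries); 958 and 450 without a symbol, at most 0.306% of a library, were left out. They also deposited log2 FPKM values, whose offset is not stated, used as an alternative and for levels in MM.1S.

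Each comparison used its own 4 libraries in edgeR 4.0.16 (R 4.3.3), with TMM scaling, filterByExpr (minimum count 10) and quasi-likelihood tests, adjusted by Benjamini-Hochberg over every gene tested, threshold 0.05. Alternatives were DESeq2 1.42.0 on those genes, limma 3.58.1 on log2 FPKM, RLE factors, library totals alone, no immunoglobulin genes, no filter, all mouse libraries in one fit, a replicate block and each library left out. The 9 members, the 4 lists and the tests were chosen with earlier results of these data known. Named genes were the 9 members, 11 fixed pathway genes, and per list and comparison 3 further genes by size of change among those passing, or else by smallest p, which is not a pass; some genes named by this rule are not reported here. The code was tested on simulated data. Replicates differed far beyond counting error (chi-square per degree of freedom 37.2 to 266).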

Additional observations from a re-analysis of the deposited data

Results flagged for a closer look

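Of the genes named in more than 1 comparison, 4 went in opposite directions without overlap between groups. Opposite directions of this kind were seen in 5.22% of 9710 genes tested in both spleen and MPC-11, 7.74% of 8949 in spleen and MM.1S and 5.16% of 8358 in MPC-11 and MM.1S. Over the 9 genes and all pathway lists they numbered 4 of 54, 5 of 62 and 5 of 46. Ly86 had a log2 ratio of 2.06 in splenic plasma cells (102 and 32.7 CPM in flox/- libraries, against 16.8 and 15.2 in flox/+ libraries), and in MPC-11 it had 0 and 0.138 CPM in guide libraries, against 7.79 and 3.497 in empty vector libraries. The difference of effect for Ly86 had an unadjusted p of 3.20e-04 and an adjusted p of 0.189 by edgeR. LY86 in MM.1S had a log2 ratio of 0.96 (27.4 and 35.03 CPM in guide libraries, against 15.7 and 16.6 in empty vector libraries), the direction of the spleen. Against MM.1S, where the species differ and the difference was not tested, Prkcb had a log2 ratio of 2.20 in spleen and PRKCB -1.44, Lyn 0.93 and LYN -0.38, and Syk 1.00 and SYK -0.62. Lyn and Syk in MPC-11 had 0.45 and 2.71, also higher in both guide libraries. Groups of 2 libraries were too small to look for single outlying samples.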

How the results depend on the processing

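Depth set a floor of 0.0763 to 0.275 CPM for 3 counts. With 2 libraries per group, edgeR called 0, 2 and 1 genes in spleen, MPC-11 and MM.1S and none of the 9. DESeq2 called 635, 159 and 374 genes, with 2, 1 and 1 of the 9. One fit of all mouse libraries gave 5 genes in spleen and 6 in MPC-11, and library totals alone 0 in MPC-11. Without a filter the numbers were 32 in MPC-11 and 289 in MM.1S, with 1 of the 9 (FCMR), and with log2 FPKM 0 in MPC-11 and 9 in MM.1S, with 1 of the 9. Leaving out each library gave 1 to 37 genes in MPC-11 and 0 to 966 in MM.1S, with 0 to 1 of the 9 in MM.1S, and 1 to 2 of the 2 tested genes above 0 in MPC-11. For the difference of effect, DESeq2 called 182 genes, no filter 8, and a library left out 0 to 1. With the replicate number as a block, MPC-11 had 0 genes and MM.1S 208, with 1 of the 9; same-numbered libraries deviated with correlations of -0.138 and 0.153, and share only a number. Crossed numbers, chosen after seeing the data, gave 1 gene in MPC-11. In spleen the flox/+ count columns carry no replicate numbers, so the block was fitted by limma to the deposited log2 FPKM, also chosen after seeing the data. It called 377 genes with 2 of the 9, Cd72 and Cd83 (log2 ratios 3.55 and 2.20), against 0 without the block. That fit had 1 residual degree of freedom and took each gene's spread from the trend across genes, and the correlation of same-numbered deviations was -0.0167.

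No member or list gene passed edgeR in the main fits, so a turn of sign could be seen only in genes not past its threshold. With library totals alone, Cd79b, Blnk, Cd81 and Fcgr2b in spleen were 0.73, 0.18, 0.41 and 0.75, and Btk and Cd81 in MPC-11 -0.13 and -0.024. Leaving out each library gave -0.12 to 0.56 for Ms4a1 and -0.068 to 0.48 for Cd79a in spleen. In MPC-11 it gave -0.69 to 0.56 for Btk, -0.036 to 0.31 for Cd81, -0.39 to 0.86 for Fcgr2b and -6.95 to 8.35 for Fcer2a, and in MM.1S -0.40 to 1.66 for CD79A. Btk in MPC-11 was -0.056 with the block, -0.055 with crossed numbers and -0.049 in log2 FPKM. In MM.1S the median of proximal signalling was -0.14 to 0.25 with a library left out, 0.071 with the block and 0.0053 in log2 FPKM, and that of inhibitory genes -0.11 to 0.74 with a library left out. The causes were not tested.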

Other observations

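Id3, which encodes an inhibitor of E proteins, was chosen after its values were seen, as a gene that was higher in each of the 3 comparisons. Id3 had 19.6 and 48.9 CPM in flox/- libraries, against 1.01 and 0 in flox/+ libraries, and 5.84 and 9.17 CPM in MPC-11 guide libraries, against 0.866 and 0.762 in empty vector libraries. ID3 had 27.7 and 19.9 CPM in MM.1S guide libraries, against 6.27 and 11.6 in empty vector libraries. By edgeR the adjusted p was 0.275, 0.498 and 0.3397 in spleen, MPC-11 and MM.1S, and by DESeq2 it was 5.11e-05, 0.0136 and 0.1102. The comparisons share no libraries.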
